A study of Mus musculus with 40 samples.

Results

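Interferon-stimulated genes are the effector genes of the interferon response, and 37 of them are described here across ear skin, sorted mast cells and cultured mast cells of the mouse. The members were taken from a fixed list of symbols. All 37 were found among the 23304 distinct gene symbols of the deposited expression table, each on a single row. The study sequenced RNA from 40 libraries in 10 groups of 4 and asked how MrgprD sensory neurons and glutamate act on skin mast cells.

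Skin was whole ear by the design text, although the skin samples carry the label Epidermal. DTR skin came from mice with a Gt(ROSA)26Sortm1(HBEGF)Awai allele on C57BL/6 crossed to the Mrgprdtm1.1(cre)And line, which is B6.129S1(Cg), so that Mrgprd-driven Cre switches on a diphtheria toxin receptor. These mice received diphtheria toxin for 3 to 4 weeks. Cre skin came from mice with the Cre allele alone. The design text gives these mice toxin as well, whereas their treatment labels list only the acetone and olive oil vehicle that the DTR mice share, and the difference was not settled. β-alanine skin came from C57BL/6J ears painted with 50 mM β-alanine, a ligand of the MrgprD receptor, once a day for 2 days, and PBS skin from ears given the vehicle. Sorted mast cells were taken from DTR and from Cre mice. Peritoneal mast cells of C57BL/6J mice were cultured for 6 h in glutamate-free Tyrode's solution with 4 mM glutamate or vehicle, or for 48 h with 50 uM NS102, an antagonist of kainate-type glutamate receptors, or vehicle. Ages of the animals are not given in the labels, and nothing says whether the 4 libraries of a group came from separate animals or cultures, so the tests measure the spread between these libraries, which may be technical.

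Type I interferons act through the IFNAR receptor and the kinases JAK1 and TYK2 on a complex with STAT2 and IRF9, which binds the interferon-stimulated response element. Interferon gamma acts through the IFNGR receptor, JAK1 and JAK2, by way of the gamma-activated site, and induces IRF1, immunoproteasome subunits and the immunity-related GTPases. Skin keratinocytes and resident leukocytes keep a low level of many of these genes without infection, and mast cells carry receptors for both classes.

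Levels are in FPKM, fragments scaled to transcript length and library size, which can be compared between genes. Each comparison used limma, a linear model with variances moderated across genes, on log2(FPKM + 1). A gene was tested where 4 or more libraries of the comparison reached 1 FPKM. An adjusted p (Benjamini-Hochberg, two-sided) under 0.05 over all genes tested counted as past the test. A log2 change is on the log2(FPKM + 1) scale, which understates changes of low genes.

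Marker genes of the labelled tissues were present in all groups. Summed over 8 mast cell markers such as Cpa3 and Kit, FPKM ranged from 4.08 to 237.9 in skin, from 9250 to 28880 in sorted cells and from 65400 to 94050 in cultured cells. Keratinocyte markers summed to at least 10450 FPKM in each skin library and to at most 9.11 FPKM in any mast cell library. Total FPKM ran from 117574 to 508485 per library, lowest in libraries 3 and 4 of the sorted DTR cells, and the sequencing depth is unknown. In bulk RNA, fewer cells of a type and less RNA per cell cannot be told apart.

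The baseline differed sharply by cell source. Means reached at least 1 FPKM for 26, 23, 28 and 26 of the 37 members in DTR, Cre, β-alanine and PBS skin. They did so for 17 members in sorted DTR and 23 in sorted Cre cells, and for 18, 21, 17 and 19 in the glutamate, 6 h vehicle, NS102 and 48 h vehicle cultures. Skin was led by Ifitm3, a membrane protein that blocks viral entry, at 157.4 ± 12.6 FPKM in Cre skin, and by Ifi27l2a, a small mitochondrial protein, at 134 ± 11.1 FPKM (SD, n = 4). Sorted DTR mast cells were led by Bst2, the tetherin that holds budding viruses, at 24.8 ± 6.64 FPKM. The other 5 mast cell groups were led by Ifitm1, a relative of Ifitm3, at 1739 ± 598 FPKM in the Cre sort and 2050 ± 83.3 FPKM in 48 h vehicle cultures. The immunoproteasome subunit Psmb8 followed at 179 ± 2.59 FPKM in the 48 h vehicle cultures and 113 ± 3.91 FPKM in the 6 h vehicle cultures, with Psmb9, another subunit, at 73.3 ± 3.80 and 55.0 ± 1.96 FPKM.

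Several antiviral effectors were at or near 0 in the cultures, and others were not. Ifit1, Ifit2, Ifit3, Mx1, Mx2, Rsad2 and Cxcl9, which restrict viral RNA, block viral replication or attract T cells, had group means of at most 0.129 FPKM in all 4 culture groups. Oas1a, which makes the activator of RNase L, averaged 1.81 ± 0.181, 2.84 ± 0.334, 1.79 ± 0.262 and 2.96 ± 0.515 FPKM in the glutamate, 6 h vehicle, NS102 and 48 h vehicle cultures. Skin had more of the Ifit genes, with Ifit3 at 3.40 ± 0.348, 3.18 ± 0.236, 6.01 ± 2.66 and 5.08 ± 1.81 FPKM in DTR, Cre, β-alanine and PBS skin. Usp18, which removes ISG15 from proteins and restrains IFNAR, went the other way, with 17.5 ± 0.485 FPKM in 48 h vehicle cultures and 0.995 ± 0.197 FPKM in Cre skin. A value listed as 0 may be a failed estimate. Mx2, Ifi44 and Cxcl9 were listed at 0 in every library of the glutamate group and of its vehicle.

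**Figure D1:**
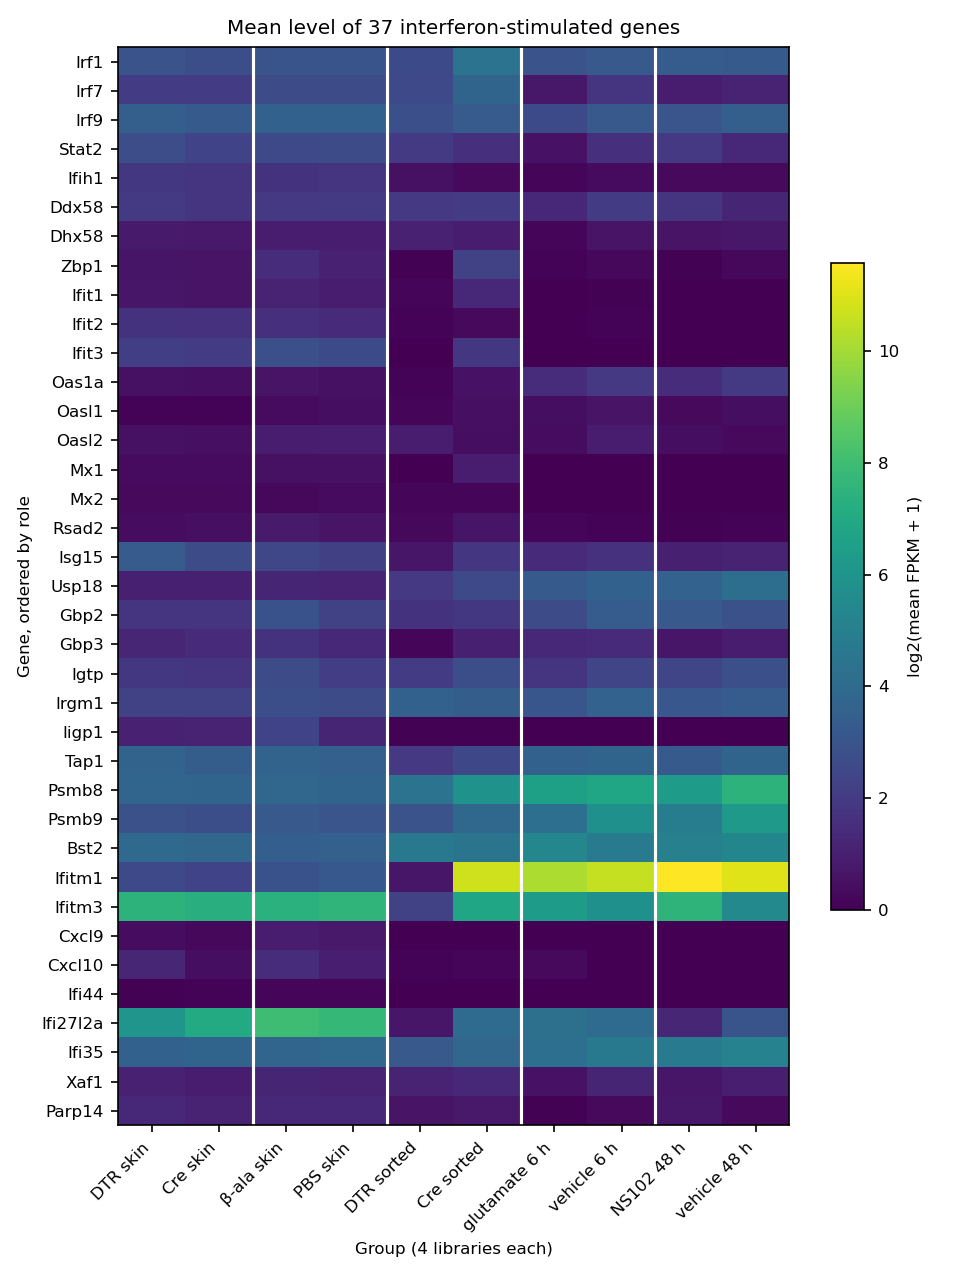
Mean level of each of the 37 genes (rows, ordered by role) in the 10 groups of 4 libraries (columns, treated group left of its control), coloured as log2(mean FPKM + 1). Ifitm1 stands at 1152 FPKM or more in cultured and sorted Cre mast cells and at 0.624 FPKM in sorted DTR cells, and the Ifit, Mx and Cxcl rows are dark in the cultures.

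Genes for the interferons themselves were almost silent. Of 21 ligand genes listed, 19 were in the table and 0 passed the expression filter in any comparison. The highest library reached 0.786 FPKM, for Ifnk, the keratinocyte interferon, in β-alanine skin. Ifnb1, the first interferon made after infection, was highest in sorted Cre cells, at 0.389, 0.614, 0.0870 and 0 FPKM. The receptor chain for interferon lambda, Ifnlr1, averaged 5.26 ± 0.565 FPKM in DTR skin and 4.68 ± 0.236 FPKM in Cre skin, against 0.0412 ± 0.0220 FPKM in sorted DTR and 0.0403 ± 0.0339 FPKM in sorted Cre cells, and was listed at 0 in every culture library.

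RefSeq promoter windows (GRCm38.p6, 250 bases before to 50 after the gene start) were held for 29 of the 37 members. They were searched on both strands for the core of the interferon-stimulated response element, GAAA repeated in the same direction with any 2 bases between the copies, and for the palindromic core of the gamma-activated site, TTCNNNGAA. The first core was present for 15 of the 29 members, or 51.7%, against 3.99% of all 27025 symbols with a window. The second was present for 8 of the 29, or 27.6%, against 9.55% of all symbols. A match is a description of letters in the window, and the cores overlap in 1 of the windows shown. The windows shown belong to genes on which the results turn. They are Ifitm1 (chr7:140967826-140968125, plus strand), Ifitm3 (chr7:141010695-141010994, minus), Ifit3 (chr19:34583279-34583578, plus), Isg15 (chr4:156200769-156201068, minus), Psmb9 (chr17:34187281-34187580, minus) and Psmb8 (chr17:34197945-34198244, plus), each printed 5′ to 3′ with matches to either core in capitals.
Ifitm1: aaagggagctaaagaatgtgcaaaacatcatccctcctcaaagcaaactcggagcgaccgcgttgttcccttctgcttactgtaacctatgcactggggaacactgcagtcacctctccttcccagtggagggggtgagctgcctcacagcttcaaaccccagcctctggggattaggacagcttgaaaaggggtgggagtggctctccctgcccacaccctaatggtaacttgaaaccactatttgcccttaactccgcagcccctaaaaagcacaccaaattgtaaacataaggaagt
Ifitm3: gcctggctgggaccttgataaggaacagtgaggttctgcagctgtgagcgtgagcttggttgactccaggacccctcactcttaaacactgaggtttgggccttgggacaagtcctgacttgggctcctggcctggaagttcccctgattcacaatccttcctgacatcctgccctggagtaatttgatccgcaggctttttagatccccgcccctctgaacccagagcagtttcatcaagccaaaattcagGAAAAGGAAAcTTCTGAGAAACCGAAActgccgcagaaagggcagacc
Ifit3: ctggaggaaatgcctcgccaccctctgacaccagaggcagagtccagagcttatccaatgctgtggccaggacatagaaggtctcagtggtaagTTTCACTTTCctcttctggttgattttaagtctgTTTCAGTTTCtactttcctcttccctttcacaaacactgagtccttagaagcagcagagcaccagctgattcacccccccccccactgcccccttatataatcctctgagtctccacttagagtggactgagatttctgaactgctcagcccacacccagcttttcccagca
Isg15: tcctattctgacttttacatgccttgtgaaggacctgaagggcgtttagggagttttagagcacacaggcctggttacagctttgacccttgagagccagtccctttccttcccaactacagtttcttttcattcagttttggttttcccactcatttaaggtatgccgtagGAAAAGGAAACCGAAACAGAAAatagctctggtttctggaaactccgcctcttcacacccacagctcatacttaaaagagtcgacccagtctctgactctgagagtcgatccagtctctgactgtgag
Psmb9: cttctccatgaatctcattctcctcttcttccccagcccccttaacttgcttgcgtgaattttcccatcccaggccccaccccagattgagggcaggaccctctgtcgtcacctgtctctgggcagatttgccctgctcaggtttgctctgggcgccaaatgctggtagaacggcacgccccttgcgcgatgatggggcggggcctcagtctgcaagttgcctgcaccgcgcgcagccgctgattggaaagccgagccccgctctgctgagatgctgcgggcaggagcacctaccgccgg
Psmb8: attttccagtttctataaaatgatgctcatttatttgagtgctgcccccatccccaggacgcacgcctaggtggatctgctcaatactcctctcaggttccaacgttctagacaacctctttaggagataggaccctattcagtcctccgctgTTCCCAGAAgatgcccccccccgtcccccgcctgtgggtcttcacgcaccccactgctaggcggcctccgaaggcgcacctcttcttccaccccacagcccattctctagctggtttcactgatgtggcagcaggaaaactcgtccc
Ifitm1 and Psmb9 held neither core, whereas Ifitm3 held 2 response element cores and 1 gamma-activated site, all after the gene start. Isg15 held 3 overlapping response element cores, Ifit3 held 2 on the opposite strand, and Psmb8 held 1 gamma-activated site. The window of Psmb9 shares 275 bases with that of Tap1, its divergent neighbour on the other strand.

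Loss of MrgprD neurons was compared first in skin, where 4 members rose, 1 fell and 20 did not pass among 25 tested. Over all 12560 genes tested, 13.8% passed, 7.46% higher and 6.35% lower, so the members' 5 of 25 is read against that share. Libraries of the groups did not overlap for 5 of the 25 members and for 21.4% of all genes. The median log2 change was 0.09 for the tested members and 0.01 for all genes.

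The genes that rose were 2 parts of the type I signalling complex, an RNA sensor and a peptide transporter. Stat2 had 6.03, 5.58, 5.27 and 5.43 FPKM in DTR skin, against 4.34, 3.70, 4.26 and 3.88 FPKM in Cre skin. All 4 DTR libraries lay above all 4 Cre libraries (log2 change 0.38, SE 0.06, adjusted p = 0.00502). Irf9, the DNA-binding partner of Stat2, averaged 10.5 ± 0.523 FPKM in DTR and 8.79 ± 0.186 FPKM in Cre skin (SD, n = 4 each), a log2 change of 0.23 (adjusted p = 0.0119). Tap1, which carries peptides for display on MHC class I, averaged 11.7 ± 1.05 and 9.63 ± 0.841 FPKM in DTR and Cre skin (log2 change 0.26, adjusted p = 0.0414), and Ddx58, the RNA sensor RIG-I, 2.89 ± 0.115 and 2.34 ± 0.228 FPKM (log2 change 0.22, adjusted p = 0.0424). The Tap1 call was lost in 7 of 8 single-library omissions, with adjusted p up to 0.0956 without library 1 of DTR skin, and the Ddx58 call in 7 of 8, up to 0.104 without library 2 of DTR skin. Ifngr1, the ligand-binding chain of the interferon gamma receptor, fell, with 36.3 ± 0.83 FPKM in DTR and 43.6 ± 1.87 FPKM in Cre skin (log2 change -0.26, adjusted p = 0.00548).

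Ifi27l2a was the only member that fell in this comparison. It had 76.8, 63.9, 57.6 and 64.5 FPKM in DTR skin, against 149, 126, 137 and 125 FPKM in Cre skin. The groups did not overlap (log2 change -1.02, SE 0.08, adjusted p = 0.000145). Adipocyte markers moved with it: their sum was 178.7 to 209.0 FPKM in DTR skin and 406.6 to 502.4 FPKM in Cre skin, and 3 of 3 fell. In the other skin groups, library by library, Ifi27l2a had 471, 240, 125 and 185 FPKM in β-alanine skin, beside adipocyte sums of 1009, 763.3, 519.2 and 520.1 FPKM. In PBS skin it had 128, 347, 155 and 209 FPKM beside 388.0, 908.1, 567.3 and 697.4 FPKM. Adipocyte sums of libraries 1 to 4 were 202.7, 181.8, 178.7 and 209.0 FPKM in DTR skin and 502.4, 406.6, 485.2 and 493.9 FPKM in Cre skin. The library highest for Ifi27l2a was highest for the sum in Cre, β-alanine and PBS skin, but not in DTR skin. The part of adipocytes in the fall was not tested.

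Isg15, the ubiquitin-like modifier, and Cxcl10, a T cell attractant, varied within DTR skin. Isg15 had 5.74, 5.75, 5.80 and 18.5 FPKM in DTR skin, against 4.78, 5.29, 5.54 and 6.34 FPKM in Cre skin. One DTR library was set apart from the other three, and the change did not pass (log2 change 0.45, adjusted p = 0.321). Cxcl10 had 2.31, 0.793, 0.670 and 1.63 FPKM in DTR skin, against 0.441, 0.252, 0.263 and 0.358 FPKM in Cre skin. The groups did not overlap, but Cxcl10 was under the expression filter, and without a filter its adjusted p was 0.0622. Mast cell markers rose in the same skin (7 of 7 tested), with sums of 194.5 to 237.9 FPKM in DTR and 66.2 to 85.9 FPKM in Cre skin. Macrophage and monocyte sums were 59.8 to 65.8 FPKM and 47.4 to 59.5 FPKM. Their part in these results was not tested.

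**Figure D2:**
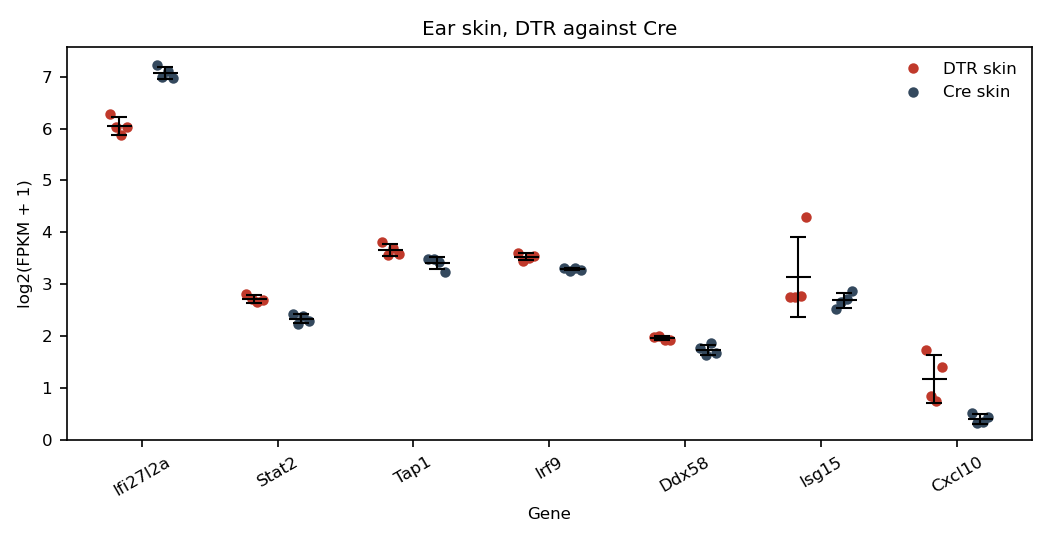
Level of 7 genes in each library of DTR skin (red, left) and Cre skin (blue, right) as log2(FPKM + 1), with bars for mean ± SD over 4 libraries. Ifi27l2a is lower in all DTR libraries, Stat2 is higher in all of them, and 1 DTR library carries 18.5 FPKM of Isg15.

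Beside the members, 3 of 19 tested signalling genes rose and 0 fell, 1 of 6 receptor genes fell, and 2 of 8 inhibitors of the pathway rose. Of all genes, 7.46% were higher and 6.35% lower. Among 52 tested further interferon-stimulated genes outside the member list, 3 rose and 4 fell. The largest change was in Ifi205, a DNA-binding protein of the interferon-inducible p200 family, which fell by 0.51 on the log2 scale (adjusted p = 0.0185). Slfn9, of the schlafen family, rose by 0.29 (adjusted p = 0.0413), Tap2, the partner of Tap1, by 0.27 (adjusted p = 0.0471), and Ikbke, a kinase that activates IRF3, by 0.24 (adjusted p = 0.0437). After centring, Tap2 and Ikbke did not pass (adjusted p = 0.0519 and 0.0683), and the counts were 1 higher and 5 lower for the further genes, 2 higher for signalling and 1 higher for inhibitors. Of all 12560 genes, 724 were then higher and 1039 lower.

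Topical β-alanine was compared next, and 1 member rose while 0 fell and 25 did not pass among 26 tested. Over all 12663 genes tested 0.213% passed, 0.0158% higher and 0.197% lower, and 1244 had an unadjusted p under 0.05. Libraries of the groups did not overlap for 1 of the 26 members and for 6.44% of all genes. The median log2 change was 0.07 for the tested members and -0.04 for all genes.

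The member that passed was Iigp1, an immunity-related GTPase of the kind that attacks the vacuoles of intracellular pathogens. It had 4.19, 2.65, 3.40 and 6.08 FPKM in β-alanine skin, against 0.991, 1.34, 1.23 and 1.55 FPKM in PBS skin. All β-alanine libraries lay above all PBS libraries (log2 change 1.12, SE 0.18, adjusted p = 0.0422). The call was lost in 6 of 8 single-library omissions (adjusted p up to 0.175, without library 3 of PBS skin), without a filter (adjusted p = 0.113), with a pseudocount of 5 and with a replicate block. Gbp2, a guanylate-binding protein, had 8.14, 4.34, 4.05 and 9.85 FPKM in β-alanine skin, against 3.25, 4.23, 4.44 and 3.63 FPKM in PBS skin (log2 change 0.56, adjusted p = 0.469). Igtp had 7.06, 3.98, 3.29 and 6.95 FPKM against 2.83, 3.88, 3.42 and 3.26 FPKM in PBS skin (log2 change 0.49, adjusted p = 0.463), and Gbp3 averaged 2.20 ± 0.593 and 1.52 ± 0.462 FPKM (adjusted p = 0.51). Irgm1 averaged 5.80 ± 1.87 and 5.22 ± 0.493 FPKM (log2 change 0.09, adjusted p = 0.892). For both Gbp2 and Igtp, β-alanine libraries 1 and 4 stood well above every PBS library. Libraries 2 and 3 lay among the PBS libraries, except that library 2 was just above them for Igtp.

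Within β-alanine skin, library 4 was highest for 21 of the 37 members and library 1 for 16, and libraries 2 and 3 for 0. Library 1 was also the lowest of its group for 2 members. Library 4 alone carried 2.37 FPKM of Ifit1, 9.94 of Ifit3, 8.96 of Irf7, 3.81 of Zbp1 and 4.35 of Cxcl10, whose values in libraries 1, 2 and 3 were at most 0.985, 5.19, 4.46, 1.24 and 1.63 FPKM. Library 1 was highest for Psmb9 and Tap1, at 13.1 and 15.5 FPKM. PBS skin was uneven as well, with library 4 highest for 18 members and library 3 for 14, while library 1 was lowest for 21. Macrophage and monocyte sums were 68.7, 48.0, 55.5 and 81.9 FPKM in β-alanine libraries 1 to 4, against 83.9, 64.6, 81.1 and 63.6 FPKM in PBS libraries 1 to 4. Neutrophil sums were 8.97, 10.8, 47.3 and 30.9 FPKM, against 21.6, 4.98, 84.7 and 50.5 FPKM in PBS skin. The part of either cell type was not tested.

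**Figure D3:**
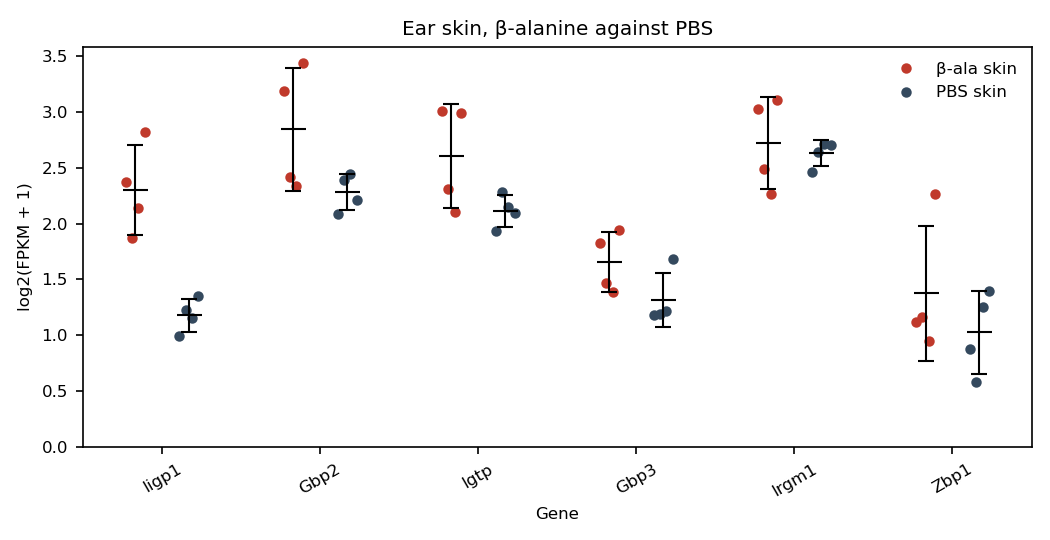
Level of 6 genes in each library of β-alanine skin (red, left) and PBS skin (blue, right) as log2(FPKM + 1), with bars for mean ± SD over 4 libraries. Iigp1 is higher in all β-alanine libraries, while for each of the other genes the groups overlap.

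Mast cell markers were far lower in this skin, at 4.08 to 7.69 FPKM in β-alanine and 208.5 to 255.1 FPKM in PBS skin in sum, with 4 of 7 past the test. Ifitm1 had 8.23, 4.90, 5.59 and 7.26 FPKM in β-alanine skin, against 8.98, 8.66, 9.02 and 6.03 FPKM in PBS skin. The groups overlapped and the change did not pass (log2 change -0.30, adjusted p = 0.583). How the marker change bears on Ifitm1 was not tested. Of the receptor, signalling, inhibitor and further interferon-stimulated genes, 0 of 6, 0 of 19, 0 of 8 and 0 of 55 passed the limma test.

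In mast cells sorted from the ablated mice, 0 members rose, 8 fell and 12 did not pass among 20 tested. Over all 8834 genes tested 35.9% passed, 19% higher and 16.8% lower. Libraries of the groups did not overlap for 7 of the 20 members and for 33.5% of all genes. The median log2 change was -0.61 for the tested members and 0.13 for all genes.

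Both Ifitm genes among the members, which encode antiviral membrane proteins, were nearly gone. Ifitm1 (mm9 chromosome 7, 148153327 to 148155726) had 1.26, 0.233, 0.578 and 0.432 FPKM in sorted DTR cells, against 2397, 2069, 1394 and 1098 FPKM in sorted Cre cells. The groups were separated throughout (log2 change -10.04, SE 0.27, adjusted p = 3.49e-17). Ifitm3 (mm9 chromosome 7, 148195488 to 148196643) had 2.76, 3.82, 5.15 and 3.81 FPKM in sorted DTR cells, against 156.2, 83.5, 53.9 and 157.1 FPKM in sorted Cre cells (log2 change -4.43, SE 0.30, adjusted p = 1.66e-10). The third membrane protein, Bst2, stood at 24.8 ± 6.64 FPKM in sorted DTR and 20.7 ± 2.09 FPKM in sorted Cre cells (adjusted p = 0.496). The Ifitm genes are related neighbours, and any splitting of reads between them in counting was not tested.

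Of the transcription factors 2 of 4 fell, and of the antigen processing genes 2 of 3, beside 16.8% of all genes lower. Irf1, the interferon gamma-induced factor, had 5.63, 6.96, 3.47 and 4.59 FPKM in sorted DTR cells, against 23.3, 26.0, 13.6 and 18.5 FPKM in sorted Cre cells (log2 change -1.79, SE 0.25, adjusted p = 1.22e-05). Irf7, which amplifies interferon alpha production, had 6.33, 4.13, 5.21 and 4.00 FPKM against 16.7, 15.1, 8.79 and 8.95 FPKM in sorted Cre cells (log2 change -1.14, adjusted p = 0.00144). Psmb8 had 25.4, 24.9, 15.3 and 16.2 FPKM against 66.2, 71.2, 36.9 and 60.1 FPKM in sorted Cre cells (log2 change -1.47, adjusted p = 0.000124). For these genes no DTR library reached the lowest Cre library. Psmb9 averaged 6.83 ± 1.74 FPKM in sorted DTR and 13.8 ± 2.86 FPKM in sorted Cre cells (log2 change -0.92, adjusted p = 0.00499). Tap1 averaged 2.77 ± 0.749 and 4.73 ± 1.08 FPKM and did not pass (log2 change -0.60, adjusted p = 0.0602, and 0.019 after centring). Zbp1, a sensor of Z-form nucleic acid, had at most 0.0797 FPKM in sorted DTR cells and 2.58 to 6.03 FPKM in sorted Cre cells (log2 change -2.10, adjusted p = 3.80e-07). Zbp1 reached the filter through the Cre libraries alone, which favours a fall.

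Ifi27l2a passed with overlapping groups, because 1 Cre library was listed at 0. It had 0.592, 0.302, 1.34 and 0.248 FPKM in sorted DTR cells, against 40.9, 0, 13.3 and 8.33 FPKM in sorted Cre cells (log2 change -2.46, adjusted p = 0.00576). With a pseudocount of 0.1 the adjusted p was 0.0993. Stat2 and Irf9, which rose in DTR skin, did not pass in the sorted cells, at 2.96 ± 0.774 and 6.18 ± 1.21 FPKM in DTR against 2.02 ± 0.551 and 9.10 ± 3.65 FPKM in Cre cells (adjusted p = 0.213 and 0.215). Irgm1, an immunity-related GTPase, averaged 11.2 ± 2.14 and 9.52 ± 1.82 FPKM in DTR and Cre cells (adjusted p = 0.502).

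**Figure D4:**
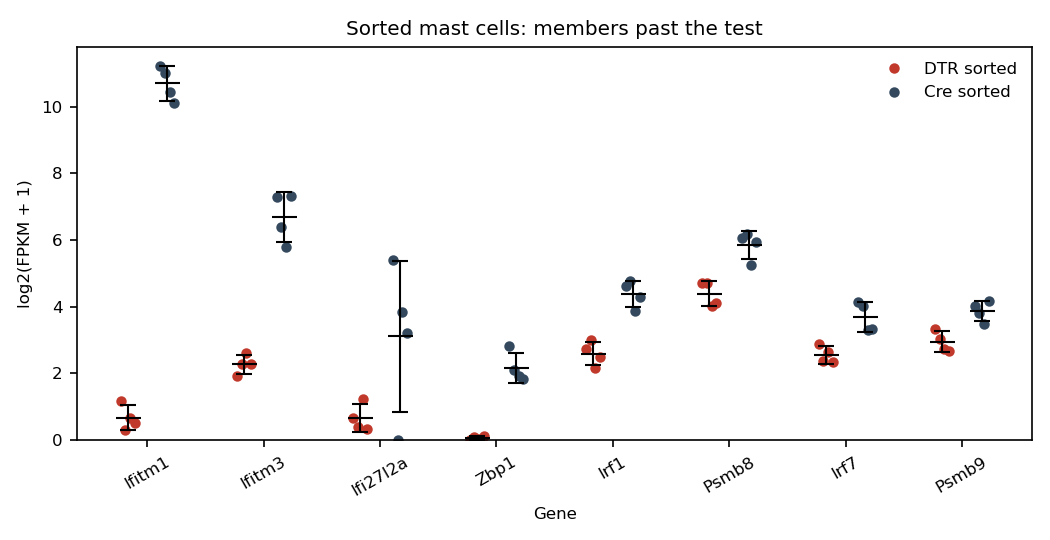
Level of the 8 genes that passed the test in each library of sorted DTR mast cells (red, left) and sorted Cre mast cells (blue, right) as log2(FPKM + 1), with bars for mean ± SD over 4 libraries. Ifitm1 is below 1.3 FPKM in every DTR library and at 1098 FPKM or more in every Cre library, and Ifi27l2a overlaps because 1 Cre library is at 0.

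Markers of other cells moved with these falls. Mcpt8, a protease that defines basophils, had 2.29, 2.77, 1.80 and 1.58 FPKM in sorted DTR cells, against 339.5, 466.6, 258.0 and 308.4 FPKM in sorted Cre cells. The basophil list summed to 202.6 to 337.7 FPKM in DTR and 638.2 to 987.9 FPKM in Cre cells, with 5 of 7 tested markers lower. Macrophage and monocyte sums were 2.80 to 9.25 FPKM and 35.9 to 113.5 FPKM (4 of 5 lower), and T and NK cell sums 6.40 to 16.7 FPKM and 14.9 to 70.2 FPKM, in DTR and Cre cells. Neutrophil sums were at most 0.235 FPKM in DTR cells and 51.6 to 252.4 FPKM in Cre cells. Mast cell markers summed to 17650 to 28880 FPKM in DTR and 9250 to 13820 FPKM in Cre cells, 6 of 8 higher and 1 lower. Endothelial sums were at most 0.304 FPKM in DTR cells and 8.43 to 14.5 FPKM in Cre cells. In sorted Cre cells, 1 of 4 endothelial and 1 of 9 T and NK cell markers averaged 1 FPKM or more. For macrophage and monocyte, neutrophil and basophil markers it was 6 of 8, 4 of 4 and 7 of 7. Cultured mast cells had endothelial sums of 15.65 to 38.83 FPKM and basophil sums of 817.3 to 1284 FPKM. In each culture group 1 of 4 endothelial markers averaged 1 FPKM or more. Of the 7 basophil markers it was 6 with glutamate and 7 in the other culture groups. Single sorted libraries also stood apart, with red blood cell markers at 664.2 FPKM in Cre library 2 and fibroblast markers at 87.4 FPKM in DTR library 3 and 217.6 FPKM in Cre library 4. With any 1 library left out, 8 to 10 members passed. The part of these cells in the falls was not tested.

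Beyond the members, 14 of 42 tested further interferon-stimulated genes fell and 3 rose, 2 of 15 signalling genes fell and 3 rose, and 2 of 5 receptor genes rose. Of all genes, 16.8% were lower and 19% higher. Slfn2, a growth regulator of immune cells, had 0.675, 1.61, 0.642 and 0.659 FPKM in sorted DTR cells, against 106.8, 97.4, 86.3 and 89.1 FPKM in sorted Cre cells (log2 change -5.68, adjusted p = 4.01e-14). Isg20, an exonuclease, averaged 0.574 ± 0.189 and 11.5 ± 1.40 FPKM, Jak2 2.53 ± 0.335 and 22.9 ± 5.39 FPKM, Samhd1, which depletes nucleotides, 5.61 ± 1.84 and 30.9 ± 6.79 FPKM, and Socs1, the feedback inhibitor of JAK kinases, 2.83 ± 1.02 and 15.3 ± 5.55 FPKM in DTR and Cre cells. These 5 genes all passed. Lgals3bp, a secreted glycoprotein, fell by 2.54 on the log2 scale (adjusted p = 2.99e-07).

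Whether ablation changed the members differently in the 2 tissues was tested as an interaction, with the 16 libraries fitted together. Of 27 members tested, 10 had a lower change in the sorted cells than in skin and 0 a higher one, while over all 13094 genes tested 27.7% passed, 14.5% higher and 13.2% lower. The difference was -10.27 for Ifitm1 (adjusted p = 6.69e-13), -4.60 for Ifitm3 (adjusted p = 9.94e-08), -1.96 for Irf1 (adjusted p = 4.94e-05), -1.51 for Psmb8, -1.20 for Irf7 and -0.86 for Tap1 on the log2 scale. In skin the changes of Ifitm1 and Ifitm3 did not pass. Ifitm1 averaged 4.81 ± 0.328 FPKM in DTR and 3.96 ± 0.755 FPKM in Cre skin (adjusted p = 0.113), and Ifitm3 177.1 ± 5.19 and 157.4 ± 12.6 FPKM (adjusted p = 0.0634). The differences for Ifit3 and Usp18 (adjusted p = 0.0493 and 0.0465) were lost in 14 and 12 of 16 single-library omissions, with adjusted p up to 0.0807 for Ifit3 without library 3 and 0.0939 for Usp18 without library 1 of Cre skin.

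Sorted cells were then set against the skin of the same genotype. Nearly all genes differ between a sorted cell and a tissue: 90.3% of 12621 genes passed for DTR, 8.83% higher and 81.5% lower, and 89.9% of 12642 for Cre, 9.8% higher and 80.1% lower. All genes together had a median log2 change of -1.33 for DTR and -1.42 for Cre, so counts are also given with libraries centred on their medians. Of 24 members tested for DTR, 5 were higher and 13 lower in sorted cells, and 16 were higher and 5 lower after centring. The libraries did not overlap for 17 of these members and for 87.9% of all genes. After centring, 6189 of all 12621 genes were higher and 4456 lower. Of 26 members tested for Cre, 11 were higher and 8 lower, and 20 were higher and 1 lower after centring. The libraries did not overlap for 17 of these and for 87.2% of all genes. After centring, 5102 of all 12642 genes were higher and 4143 lower.

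Higher in sorted Cre cells were Ifitm1, at 1739 ± 598 FPKM in sorted cells and 3.96 ± 0.755 FPKM in skin (log2 change 8.40, adjusted p = 2.50e-09), and Psmb8, at 58.6 ± 15.2 and 12.4 ± 1.37 FPKM (log2 change 2.12, adjusted p = 5.83e-06). Irf7, Irf1, Zbp1, Usp18, Irgm1 and Psmb9 were also higher, by 1.70, 1.58, 1.54, 1.52, 1.12 and 1.08 on the log2 scale. Lower in sorted Cre cells was Ifi27l2a, at 15.6 ± 17.7 and 134 ± 11.1 FPKM (log2 change -3.96, adjusted p = 0.00322), and was lower after centring as well (adjusted p = 0.043). Ifih1, the RNA sensor MDA5, Ifit2 and Iigp1 were lower by FPKM (log2 change -1.5, -1.36 and -1.10) but changed sign under centring, quantile normalization and length correction. Relative to the median of all genes, Ifih1, Ifit2 and Iigp1 were at -0.08, 0.06 and 0.32. These genes reached the filter through the skin libraries alone, and Zbp1 through the sorted libraries alone.

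In DTR mice the order was different. Irgm1 was higher in sorted cells, at 11.2 ± 2.14 FPKM against 3.84 ± 0.430 FPKM in skin (log2 change 1.32, adjusted p = 2.10e-06), as were Usp18, Bst2, Psmb8 and Irf7, by 0.87, 0.70, 0.61 and 0.50. Ifitm1 was lower, at 0.624 ± 0.444 FPKM in sorted DTR cells and 4.81 ± 0.328 FPKM in DTR skin (log2 change -1.87, adjusted p = 1.28e-07, but 0.0901 after centring). Ifitm3 was lower, at 3.88 ± 0.981 and 177.1 ± 5.19 FPKM (log2 change -5.21, adjusted p = 1.27e-11), as were Ifi27l2a, Isg15, Ifit3 and Tap1, by -5.40, -2.48, -2.09 and -1.77. Gbp3 and Stat2 were lower by FPKM (-1.0 and -0.75) and changed sign under the 3 scalings, as did Ifih1. Relative to the median of all genes, Ifih1 was at -0.02. Isg15, Ifit3, Gbp3 and Ifih1 reached the filter through the skin libraries alone. Ifi30, a lysosomal thiol reductase outside the member list, was lower in both, by -5.64 in sorted DTR and -5.30 in sorted Cre cells.

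Glutamate for 6 h was compared in cultured cells, where 3 members rose, 16 fell and 2 did not pass among 21 tested. Over all 8273 genes tested 79.3% passed, 16.9% higher and 62.4% lower, and the median log2 change was -0.45 for the members and -0.33 for all genes. Libraries of the groups did not overlap for 17 of the 21 members and for 74.3% of all genes. With libraries centred on their medians, 6 members were higher and 9 lower, beside 3698 of all 8273 genes higher and 2593 lower.

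Psmb9 fell most on the log2(FPKM + 1) scale, while the ratio of group means was lower for Stat2 and Irf7, at 0.239 and 0.294, than for Psmb9, at 0.325. Psmb9 had 19.1, 18.2, 16.8 and 17.3 FPKM with glutamate, against 54.1, 52.7, 57.0 and 56.2 FPKM with vehicle. No library of one group came near the other (log2 change -1.57, SE 0.05, adjusted p = 1.66e-11, and -1.24 relative to the median of all genes). Tap1, whose promoter window overlaps that of Psmb9, averaged 11.1 ± 0.735 FPKM with glutamate and 12.5 ± 0.556 FPKM with vehicle (log2 change -0.16, adjusted p = 0.0231), and Psmb8 94.0 ± 1.05 and 113 ± 3.91 FPKM (log2 change -0.26, adjusted p = 8.52e-06). After centring both changed sign, to 0.25 and 0.15. The Tap1 call was also lost in 3 of 8 single-library omissions (adjusted p up to 0.0745, without library 3 of the glutamate group). Tap1 and Psmb8 were picked out after their values were seen.

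Transcription factors of the pathway fell in FPKM, 4 of 4, beside 62.4% of all genes lower. Stat2 had 0.483, 0.490, 0.533 and 0.456 FPKM with glutamate, against 2.43, 1.88, 1.78 and 2.12 FPKM with vehicle (log2 change -1.03, SE 0.08, adjusted p = 3.58e-08). Irf7 had 0.605, 0.676, 0.875 and 0.587 FPKM with glutamate, against 2.22, 2.55, 2.61 and 1.95 FPKM with vehicle (log2 change -0.98, adjusted p = 1.66e-07). Irf9 averaged 4.98 ± 0.370 and 8.33 ± 0.369 FPKM (log2 change -0.64, adjusted p = 7.02e-07). Stat2 and Irf7 were under 1 FPKM in every glutamate library and reached the filter through the vehicle libraries. These 3 changes passed after centring too. That of Irf1, whose groups overlapped, did not (adjusted p = 0.119), and was 0.06 relative to the median of all genes.

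Other falls were spread over sensors, GTPases and small effectors. Ddx58 averaged 1.51 ± 0.237 FPKM with glutamate and 3.17 ± 0.490 FPKM with vehicle, Igtp 2.32 ± 0.338 and 4.31 ± 0.459 FPKM, Gbp2 5.5 ± 0.783 and 9.34 ± 0.836 FPKM, and Xaf1, a pro-apoptotic factor, 0.474 ± 0.0472 and 1.26 ± 0.150 FPKM. Their log2 changes were -0.73, -0.68, -0.67 and -0.62. Xaf1, like Stat2 and Irf7, reached the filter through the vehicle libraries. Irgm1 fell by 0.56 and Ifi35, a leucine zipper protein, by 0.45 on the log2 scale, of which Ifi35 did not pass after centring (adjusted p = 0.594).

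Both Bst2 and Ifitm3, membrane proteins, rose against this trend. Bst2 had 39.1, 41.2, 38.6 and 41.4 FPKM with glutamate, against 24.6, 26.1, 25.6 and 25.8 FPKM with vehicle (log2 change 0.63, SE 0.04, adjusted p = 1.17e-08). Ifitm3 had 85.3, 82.8, 81.0 and 90.5 FPKM with glutamate, against 57.8, 51.3, 52.2 and 60.4 FPKM with vehicle (log2 change 0.61, SE 0.05, adjusted p = 2.62e-07). In both, every glutamate library lay above every vehicle library. Ifitm1 averaged 1152 ± 16.4 FPKM with glutamate and 1516 ± 42.4 FPKM with vehicle (log2 change -0.40, adjusted p = 3.94e-08), which after centring was 0.02. Relative to the median of all genes it was -0.07. Ifi27l2a rose by 0.20 (adjusted p = 0.0241), a call lost in 4 of 8 single-library omissions, with adjusted p up to 0.0786 without library 2 of the vehicle group. Isg15 did not pass, at 1.64 ± 0.596 and 2.13 ± 0.760 FPKM (adjusted p = 0.21).

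The upstream genes fell as a group in FPKM. All 14 tested signalling genes fell, as did 5 of 5 receptor genes, and among 42 further interferon-stimulated genes 28 fell and 8 rose, beside 62.4% of all genes lower. After centring, 19 of the further genes were lower and 16 higher, 9 of the 14 signalling genes were lower and 0 higher, and 2 of 5 receptor genes were lower and 1 higher. Of all 8273 genes, 2593 were then lower and 3698 higher. Tyk2, the kinase bound to IFNAR1, had 1.18, 1.29, 1.71 and 1.09 FPKM with glutamate, against 7.64, 6.51, 5.97 and 6.22 FPKM with vehicle (log2 change -1.71, adjusted p = 2.58e-09). Samhd1 averaged 1.33 ± 0.252 and 7.92 ± 0.415 FPKM, Tmem173, the adaptor STING, 2.39 ± 0.302 and 9.65 ± 0.422 FPKM, and Irf3 1.79 ± 0.336 and 6.78 ± 0.509 FPKM with glutamate and vehicle. Their log2 changes were -1.94, -1.66 and -1.49. Sp110, a nuclear body protein, fell by 1.5 and Uba7, the activating enzyme for ISG15, by 1.29 on the log2 scale.

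NS102 for 48 h moved the members in both directions, with 5 higher, 11 lower and 3 that did not pass among 19 tested, and with 8 higher and 9 lower under length correction. Over all 8349 genes tested 70.5% passed, 30.8% higher and 39.7% lower. Under length correction 2759 of 7864 genes were higher and 2820 lower. Libraries of the groups did not overlap for 16 of the 19 members and for 64.4% of all genes. The median log2 change was -0.24 for the members and -0.06 for all genes. Across all genes with a length, the log2 change correlated with transcript length (Spearman's rho 0.379). The same rho was 0.304 for DTR against Cre skin and 0.198 for β-alanine against PBS skin. The effect of length correction on single genes was checked for named members only.

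Ifitm3 rose most. It had 195.9, 194.3, 166.1 and 179.8 FPKM with NS102, against 39.4, 40.8, 41.5 and 50.1 FPKM with vehicle. The groups were far apart (log2 change 2.08, SE 0.08, adjusted p = 1.48e-09). Ifitm1 had 3313, 3443, 2637 and 2895 FPKM with NS102, against 1989, 2004, 2036 and 2172 FPKM with vehicle (log2 change 0.58, adjusted p = 6.91e-05). Bst2 averaged 32.5 ± 1.31 FPKM with NS102 and 38.6 ± 2.64 FPKM with vehicle (log2 change -0.24, adjusted p = 0.0028), and under length correction its change was 0.24.

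All 3 antigen processing members fell, beside 39.7% of all genes lower. Psmb9 had 30.4, 31.2, 24.3 and 25.4 FPKM with NS102, against 72.9, 72.3, 78.5 and 69.5 FPKM with vehicle (log2 change -1.37, SE 0.08, adjusted p = 4.27e-08). Psmb8 had 83.7, 83.1, 78.5 and 77.0 FPKM with NS102, against 179, 181, 181 and 175 FPKM with vehicle (log2 change -1.14, SE 0.05, adjusted p = 2.34e-09). Tap1 averaged 8.76 ± 0.444 and 12.5 ± 1.42 FPKM (log2 change -0.46, adjusted p = 0.0002). Psmb10, the third inducible proteasome subunit and not a member, averaged 14.8 ± 0.666 FPKM with NS102 and 30.6 ± 0.498 FPKM with vehicle (log2 change -1.0, adjusted p = 1.77e-08).

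Ifi27l2a had the deepest fall, with 1.04, 1.86, 1.02 and 1.48 FPKM with NS102, against 5.16, 8.91, 8.13 and 5.60 FPKM with vehicle (log2 change -1.74, SE 0.16, adjusted p = 1.40e-06). The ISG15 protease Usp18 averaged 11.5 ± 0.565 and 17.5 ± 0.485 FPKM (log2 change -0.57), and Oas1a 1.79 ± 0.262 and 2.96 ± 0.515 FPKM (log2 change -0.50). Reads of Oas1a may be shared with its close relatives. Irf9 and Ifi35 fell by 0.45 and 0.43 on the log2 scale. The call of Ifi35 was lost under length correction. Isg15 averaged 0.997 ± 0.235 FPKM with NS102 and 1.24 ± 0.220 FPKM with vehicle and did not pass (adjusted p = 0.15).

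Stat2, Ddx58 and Gbp2 rose. Stat2 had 2.53, 2.21, 3.41 and 3.26 FPKM with NS102, against 1.82, 1.16, 1.48 and 1.68 FPKM with vehicle (log2 change 0.60, SE 0.12, adjusted p = 0.000554). Ddx58 averaged 2.38 ± 0.444 and 1.28 ± 0.307 FPKM (log2 change 0.57, adjusted p = 0.000889), and Gbp2 8.5 ± 0.632 and 6.31 ± 0.714 FPKM (log2 change 0.38, adjusted p = 0.00123). In each, no NS102 library was below a vehicle library. Stat2 rose with NS102 while its partner Irf9 fell.

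**Figure D5:**
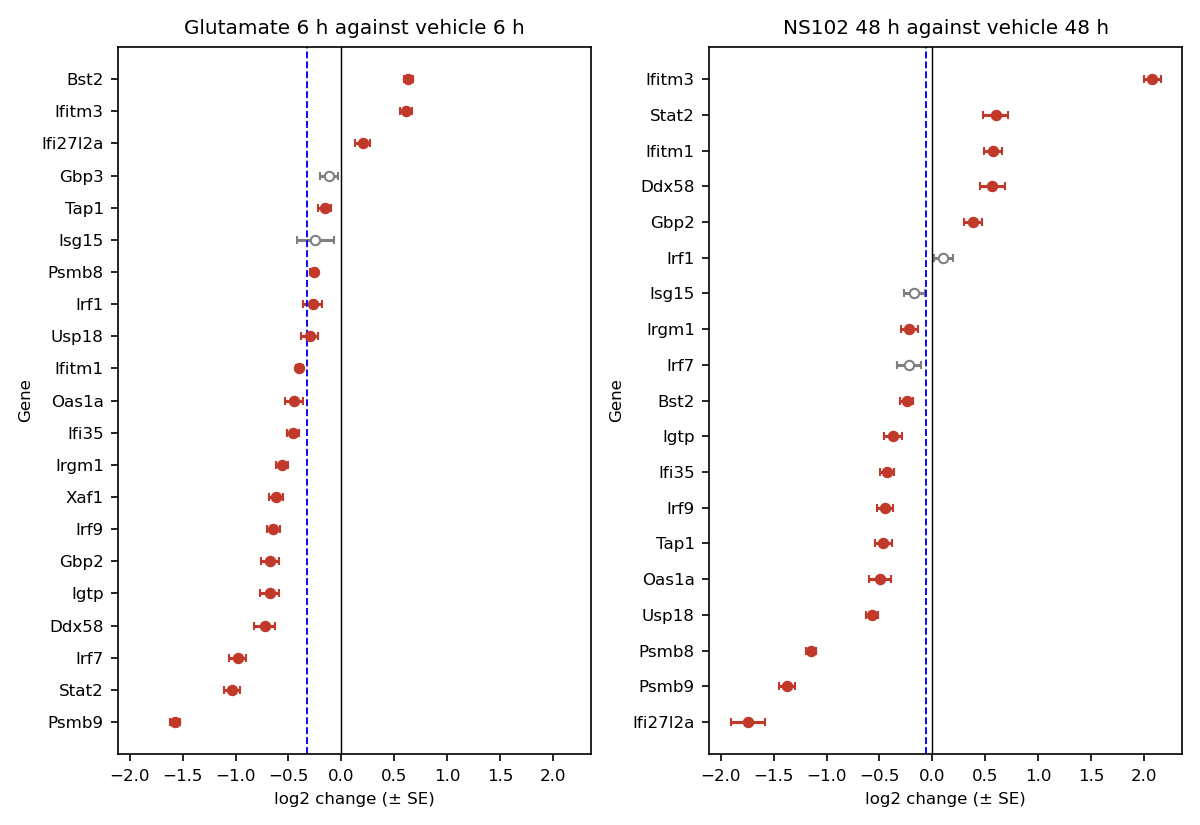
Log2 change (± SE) of each tested member with glutamate for 6 h (left, 21 genes) and with NS102 for 48 h (right, 19 genes), against the vehicle of the same time, filled where past the test, with the median of all genes as a dashed line. Psmb9 is at -1.57 and -1.37 and Ifitm3 at 0.61 and 2.08 in the 2 panels.

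Around the members, 8 of 15 tested signalling genes rose with NS102 and 3 fell, and 4 of 5 receptor genes rose. Of all genes, 30.8% were higher and 39.7% lower. Jak1 averaged 25.5 ± 3.18 FPKM with NS102 and 13.9 ± 1.54 FPKM with vehicle, and Jak2 7.06 ± 0.807 and 3.65 ± 0.677 FPKM (log2 change 0.83 and 0.80). Stat3 and Gbp7 rose by 0.78 and 0.89. Of 44 further interferon-stimulated genes 23 fell and 10 rose, led by Ifi47, an immunity-related GTPase, at 2.39 ± 0.171 and 6.91 ± 0.501 FPKM (log2 change -1.22, adjusted p = 5.60e-08). Socs1 was high in both 48 h groups, at 149.6 ± 6.87 FPKM with NS102 and 133.1 ± 6.57 FPKM with vehicle, beside 13.4 ± 0.525 FPKM with glutamate and 13.4 ± 0.642 FPKM with its 6 h vehicle. Culture time and medium differ between the 2 experiments, which were not tested against each other.

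Side by side, the 2 drug experiments gave Psmb9 a log2 change of -1.57 with glutamate and -1.37 with NS102, and Ifitm3 0.61 and 2.08. Bst2 had 0.63 with glutamate and -0.24 with NS102, Stat2 -1.03 and 0.60, Ddx58 -0.73 and 0.57, Gbp2 -0.67 and 0.38, Ifitm1 -0.40 and 0.58, and Ifi27l2a 0.20 and -1.74. Under length correction the NS102 change of Bst2 changed sign. Psmb8, Tap1, Irf9, Usp18, Oas1a, Ifi35, Igtp and Irgm1 fell past the test in both, as Psmb9 did. With glutamate, Ifitm1, Psmb8, Tap1 and Usp18 were at -0.07, 0.065, 0.17 and 0.03 relative to the median of all genes. Dose, time and medium differed, so no test of a difference was made.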

How the data were processed

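RNA was sequenced from 40 libraries in 10 groups of 4. The deposited values are FPKM, which the authors made with STAR and Cufflinks on mm9, per the submitters' processing notes; versions are not given in the sources used here, and the file header does not name the unit. Strand use and any further scaling are not stated. Depth is unknown, so no counting interval is given.

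All 37 members were matched by symbol. Values were taken as log2(FPKM + 1), filtered at 1 FPKM in at least 4 libraries, and fitted with limma 3.58.1 (R 4.3.3, mean-variance trend), two-sided, Benjamini-Hochberg over all genes tested. The fit was tested on simulated data. Members and lists were chosen with earlier results of these data known. Per comparison, up to 12 members past the test were named by size of change, filled to 4 by p where fewer passed, and up to 6 further pathway genes likewise. Cxcl10, Isg15, Bst2, Irgm1, Tap1, Psmb8, Ifitm1, Ifitm3, Ifi27l2a, Gbp2, Igtp, Usp18, Oas1a and Socs1 were named outside the rule in places, after their values were seen. Alternatives were pseudocounts of 0.1 and 5, no filter, a 5 FPKM filter, median centring, quantile normalization, a replicate block, a shared spread, no trend, each library left out, and a length correction chosen after seeing the data. Promoter sequences are from RefSeq (GRCm38.p6), gene coordinates from the deposited table (mm9). A result on 1 pathway gene is not reported here.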

Additional observations from a re-analysis of the deposited data

Results flagged for a closer look

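In 8 groups of a named gene, 1 of the 4 libraries stood apart from the rest by Dixon's test. They were Isg15 at 18.51 FPKM in library 4 of DTR skin, Ifit3 at 2.881 FPKM in library 1 and Ifih1 at 2.341 FPKM in library 4 of the same group, and Gbp3 at 2.212 FPKM in library 4 of PBS skin. In mast cells they were Usp18 at 3.106 FPKM in library 4 and Iigp1 at 0.1686 FPKM in library 3 of sorted Cre cells, Irf9 at 5.53 FPKM in library 3 of the glutamate group and Ifitm1 at 1453 FPKM in library 2 of its vehicle. The check covered 139 groups, and chance alone marks about 1 in 20.

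By the interaction term of limma, the ablation effect differed between sorted mast cells and skin for 10 of 27 members tested. Over all 13094 genes tested, 27.7% passed. The calls of Ifit3 and Usp18 were lost in 14 and 12 of 16 single-library omissions. The change in sorted cells minus the change in skin was -10.27 for Ifitm1, -4.60 for Ifitm3, -2.09 for Zbp1, -1.96 for Irf1, -1.54 for Ifit3, -1.51 for Psmb8, -1.20 for Irf7, -0.99 for Psmb9, -0.86 for Tap1 and -0.65 for Usp18 on the log2 scale.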

How the results depend on the processing

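Counts of members past the test held within 1.5 times in most settings. In DTR skin the 5 became 3 without a filter, 1 (Stat2) with a shared spread, and 3 to 6 with 1 library left out. In β-alanine skin the 1 became 0 with a pseudocount of 5, without a filter and with a replicate block. With 1 library left out it was 0 to 1. It was also 0 with a filter of 5 FPKM, under which Iigp1 was not tested. In sorted cells the 8 became 13 with length correction, beside 44.9% of all genes, and 8 to 10 with 1 library left out. A filter of 5 FPKM, which tests fewer genes, gave 9 for sorted Cre cells against skin and 11 for sorted DTR cells against skin. Whether the replicate numbers pair samples is not settled. Correlations of same-numbered libraries, taken as deviations from their group means, ran from -0.248 to 0.374. The replicate block moved no count other than that of β-alanine skin by over 1.5 times.

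With sorted Cre cells against skin, Ifih1, Ifit2, Iigp1 and Ifitm3 reversed to 0.054, 0.19, 0.45 and 0.94 under centring, 0.24, 0.24, 0.16 and 0.46 under quantile normalization and 0.12, 0.12, 0.36 and 0.61 under length correction. With sorted DTR cells against skin, Ifih1, Gbp3 and Stat2 reversed to 0.20, 0.55 and 0.80, to 0.36, 0.43 and 0.83 and to 0.21, 0.29 and 0.67 under the same settings. With glutamate, Tap1, Psmb8, Ifitm1 and Isg15 reversed to 0.25, 0.15, 0.017 and 0.17 under centring, Tap1 and Isg15 to 0.18 and 0.14 under quantile normalization, and Tap1 and Psmb8 to 0.22 and 0.065 under length correction. With NS102, Bst2 and Isg15 reversed to 0.24 and 0.34 under length correction, the Isg15 value past the test. These settings rescale all genes of a library, and no other cause was tested. After centring, the median of all genes was 0.13 for Cre and 0.22 for DTR cells against skin, and 0.085 with glutamate. Depth is unknown, and values under 1 FPKM limit what can be said of the Ifit, Mx and Cxcl genes in mast cells.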
